A study of Drosophila melanogaster with 6 samples.

Results

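The cytochrome P450 family of Drosophila was followed in wing discs, the larval epithelia that form the adult wing, with and without overexpression of Nrf2 (CncC, encoded by cnc). Its members were taken as every gene whose symbol has the form of a P450 name (Cyp, a number, a letter and a number), apart from Cyp18a1, an enzyme of ecdysteroid turnover. Of 84 such genes in the reference gene table, 80 had counts and made up the family described here, out of 13955 genes counted in all, and Cyp6a15Psi, Cyp6a21, Cyp6t2Psi and Cyp9f3 were not analysed here. By the number in their names they comprise 22 Cyp4 genes, 22 Cyp6 genes, 5 Cyp9 genes, 7 Cyp12 genes, 19 genes with numbers in the 300s (Cyp3xx) and 5 others, which are the Cyp28 genes and Cyp49a1. P450 genes with other names, such as the ecdysteroid-synthesis genes spo, dib, sad and shd, fall outside this definition.

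P450 enzymes are haem proteins that insert an oxygen atom into lipophilic compounds, using electrons passed on by partner proteins of the endoplasmic reticulum or of the mitochondria. In insects, many Cyp6, Cyp9, Cyp12 and Cyp28 enzymes act on plant toxins and insecticides, whereas others act on hormones, fatty acids or cuticle lipids. In flies, CncC is known as an activator of detoxification genes, P450 genes among them, and Keap1 as its inhibitor. P450 levels are best known from the fat body, gut and Malpighian tubules, and the wing disc is not a tissue specialised for detoxification.

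There were 3 Nrf2 overexpression and 3 control samples of female wandering third-instar larvae kept at 28 °C. According to the Methods, both genotypes carried hs-FLP, a ubiquitous tubulin-promoter Gal4 driver, UAS-CD8-GFP and tub-Gal80ts, a temperature-sensitive inhibitor of Gal4, and the Nrf2 overexpression larvae carried UAS-nrf2 in addition. The labels instead call the controls wild type, and yw stands in the sample titles, so that effects of the driver or of strain cannot be told apart from those of Nrf2 if the labels are right. The promoter of the driver is not limited to a cell type, and fewer cells of a type cannot be told apart from less RNA per cell in whole discs. Nothing states that the samples came from separate crosses, so that p-values measure the spread between these samples only.

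Total counts lay between 16464410 and 16682764 per library. cnc had 84044, 147169 and 172120 counts in Nrf2 overexpression and 1983, 1777 and 1848 counts in control, with a log2 fold change (log2FC) of 6.11 and a standard error (SE) of 0.27 (adjusted p = 5.88e-07 by edgeR's quasi-likelihood test). Of 12 listed wing disc markers, 10 were found, and their summed level, as CPM (counts scaled to the library total), was 1567 to 2027 CPM in Nrf2 overexpression and 1411 to 1659 in control. Of the 10, 4 rose (rn, sd, vg and zfh2) and 3 fell (pnr, Dll and en). Their log2FCs ran from -0.54 for pnr to 0.72 for rn. Control replicate 2 stood apart in fat body RNA, with 2663 counts of the larval serum protein gene Lsp1beta, against 54 to 461 in Nrf2 overexpression and 41 and 347 in the other controls. Not every fat body marker followed, as Fbp1 had 1256 counts in control replicate 1 and 566 in control replicate 2. The summed fat body markers ranged from 23.3 to 103 CPM in Nrf2 overexpression and from 25.1 to 565 in control. Of 8 Malpighian tubule markers, Uro and 2 others were at 0 in every library, while Picot (23 to 58 counts) and Irk3 (16 to 35 counts) were detected throughout and did not pass the test. Among 10 gut markers, betaTry had 2 counts or fewer and alphaTry 5 or fewer, but Npc2b had 132, 105 and 71 counts in Nrf2 overexpression and 23, 25 and 32 in control and rose 3.66-fold (adjusted p = 0.000268). The summed gut markers reached 4.85 to 8.36 CPM in Nrf2 overexpression and 2.55 to 3.0 in control. Summed tracheal markers were higher, at 2653 to 2930 CPM in Nrf2 overexpression and 1730 to 1851 in control, with 4 of 5 called higher. Of 12 ecdysone response genes found, 11 were tested, of which 8 fell and 1, ftz-f1, rose. Their summed level was 414 to 623 CPM in Nrf2 overexpression and 2486 to 3919 in control. For the wing disc, tracheal and ecdysone lists, the shares among all genes tested were 30.9% higher and 31.6% lower. The part of these tissues, or of hormone signalling or stage, in the P450 changes was not tested, but the P450 counts are also given without control replicate 2.

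Most P450 genes had some counts in wing discs, but many had few. Of the 80 members, 74 had at least 1 count, 6 had none in any library, and 33 passed the filter on low counts (edgeR's filterByExpr, which asks for about 10 counts in 3 libraries). Of all 13955 genes counted, 8361 passed this filter. The 47 members that did not pass had at most 43 counts in a library. Scaled to CPM per kilobase of exon, Cyp9c1 had the highest mean level over all libraries. Its level was 101, 86.6 and 71.2 in Nrf2 overexpression and 29.8, 38.9 and 40.2 in control. Cyp310a1 followed, with levels of 64.2, 57.7 and 65.2 in Nrf2 overexpression and 46.0, 56.7 and 52.1 in control. In control discs, Cyp310a1 and Cyp4p2 had the highest means (51.6 ± 5.37 and 50.6 ± 3.90, SD, n = 3), which lay within each other's spread. Cyp6v1 overlapped between genotypes, at 31.1, 28.1 and 29.0 in Nrf2 overexpression and 29.0, 27.6 and 30.0 in control. Cyp6u1, Cyp4d2, Cyp4e2 and Cyp4p1 completed the 8 highest levels. In Nrf2 overexpression the order was Cyp9c1, Cyp310a1, Cyp6v1 and Cyp6u1, with no overlap between neighbours, and Cyp4d2 and Cyp4e2 after them overlapped.

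A few genes carried most of the P450 counts. Cyp9c1, Cyp310a1 and Cyp6v1 together held 53.5% of them in Nrf2 overexpression, whereas in control the leading genes Cyp4p2, Cyp6v1 and Cyp310a1 held 51.6%. Cyp9c1 held 23.5% in Nrf2 overexpression and 12.4% in control. Summed over the 80 genes, P450 counts were 666, 655 and 602 CPM in Nrf2 overexpression and 497, 503 and 526 CPM in control, so that the groups did not overlap. The sum included Cyp4p2, which held 17.7% of the P450 counts in control and was near 0 in Nrf2 overexpression. Without the Cyp4p genes, a split chosen after their values were seen, the sums were 664, 650 and 598 CPM in Nrf2 overexpression and 375, 400 and 406 CPM in control. The Cyp9 genes summed to 201, 175 and 143 CPM in Nrf2 overexpression and 58.3, 76.1 and 76.7 in control. The Cyp6 genes summed to 205 ± 9.47 CPM in Nrf2 overexpression and 149 ± 5.42 in control (SD, n = 3 each). The sum of the Cyp4 genes was lower, with 106 ± 8.74 CPM in Nrf2 overexpression and 164 ± 15.3 in control. It includes the Cyp4p genes, and Cyp4p2 and Cyp4p1 held 17.7% and 4.89% of the P450 counts in control. Of 8 Cyp4 genes tested, these 2 fell and 5 others rose, against 31.6% and 30.9% of all genes tested. The sum of the little-expressed Cyp12 genes was lower too, with 2.89, 2.32 and 1.32 CPM in Nrf2 overexpression and 3.26, 3.02 and 3.19 in control. Not every Cyp12 gene followed. Cyp12b2 had 12, 3 and 8 counts in Nrf2 overexpression and 0, 3 and 2 in control. Cyp12e1 had 12, 11 and 4 counts in Nrf2 overexpression and 5, 3 and 1 in control. Neither passed the filter on low counts.

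**Figure D1:**
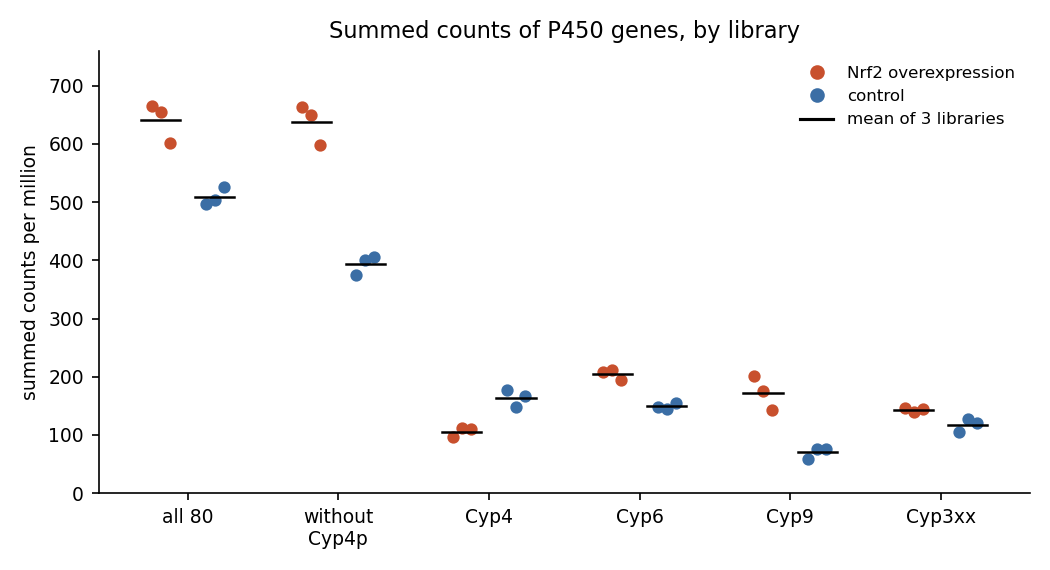
Summed CPM of the P450 genes in each library, for all 80 genes, for those outside the Cyp4p cluster, and for the Cyp4, Cyp6, Cyp9 and Cyp3xx genes. Each point is a library and each bar the mean of 3 libraries. Every sum is higher in Nrf2 overexpression but that of the Cyp4 genes, which averaged 106 CPM there and 164 in control. The Cyp4 sum includes the Cyp4p genes.

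Most P450 genes that could be tested were higher in Nrf2 overexpression. At an adjusted p-value under 0.05, 22 of the 33 rose and 4 fell, which is 66.7% and 12.1% of those tested. Among all 8361 genes tested, 30.9% rose and 31.6% fell. The median log2FC was 0.83 over the 33 P450 genes and -0.01 over all genes tested. In 25 P450 genes, every Nrf2 overexpression library lay above every control library (33.6% of all genes), and in 6, every library lay below (34.9% of all genes). The 33 include 5 genes with no control library at the filter's minimum, 4 of which rose, and 2 with no Nrf2 overexpression library at it, both of which fell. Among the 21 averaging 50 normalized counts or more over all libraries, 15 rose and 3 fell, against 32.0% and 32.7% of all genes with that mean. Without control replicate 2, the library rich in fat body RNA, 24 rose and 4 fell.

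**Figure D2:**
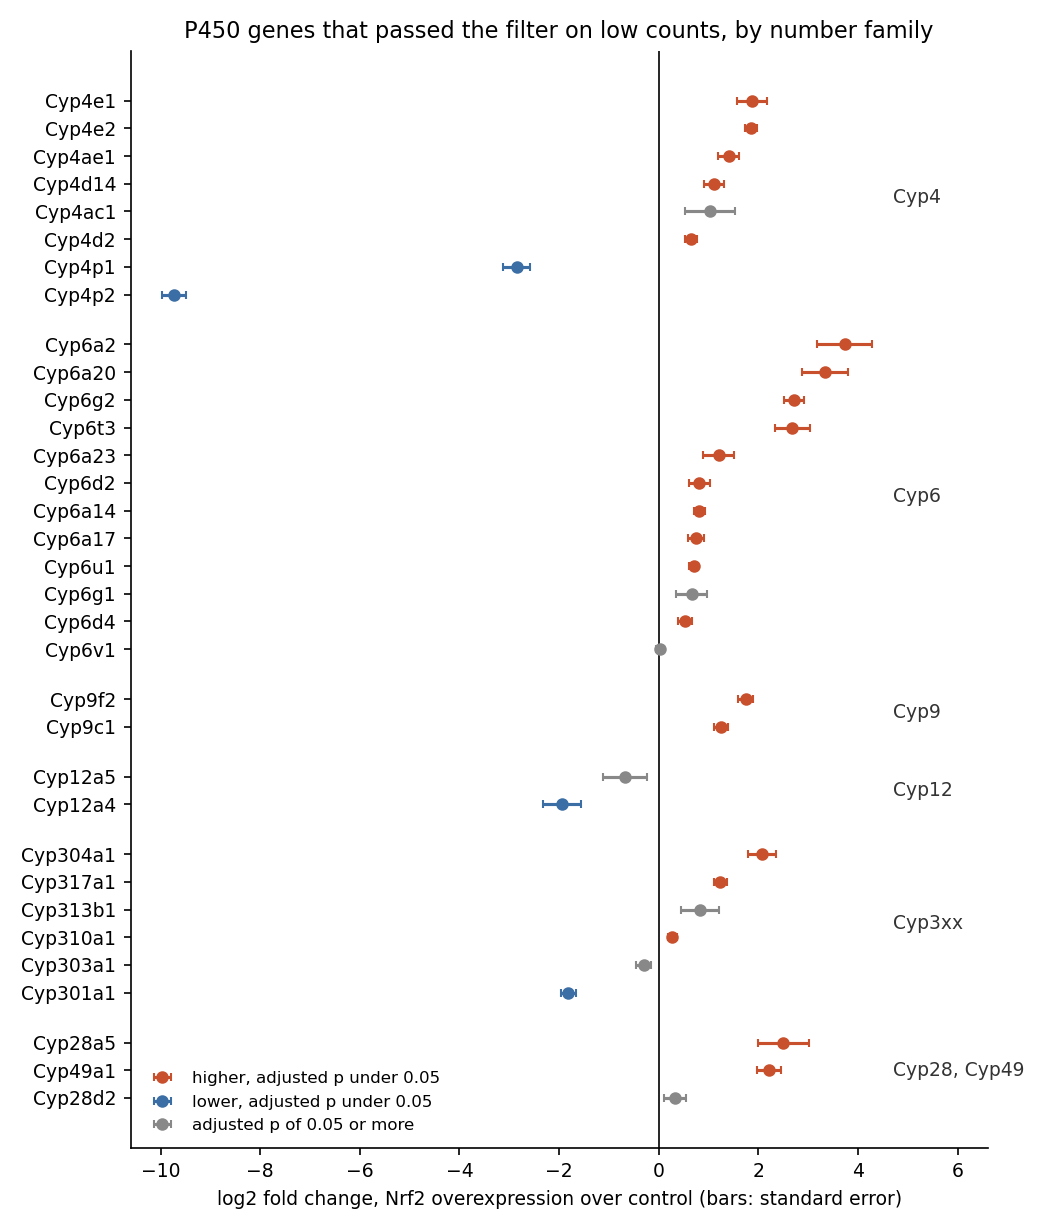
Log2FC (Nrf2 overexpression over control) with its SE for the 33 P450 genes that passed the filter, grouped by number family and coloured by the result of edgeR's test. The SE of Cyp4p2 is smaller than its counting error, and values run from -9.73 for Cyp4p2 to 3.73 for Cyp6a2. The Cyp6 and Cyp9 genes shown lie above 0, with Cyp6v1 the lowest Cyp6 gene at 0.03.

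The Cyp6 genes, the group best known for insecticide metabolism, mostly rose. Of 22 members 12 were tested, of which 10 rose and 0 fell, against 30.9% and 31.6% of all genes tested. Of the 10, Cyp6a2 and Cyp6a20 passed the filter only through the Nrf2 overexpression libraries, where they are high, so that the filter itself favours a rise. None was lower at an unadjusted p-value under 0.05, and DESeq2 and limma-voom called 0 lower as well. Cyp6a2, an insecticide-metabolising enzyme known to respond to phenobarbital, had 25, 23 and 26 counts in Nrf2 overexpression and 3, 0 and 2 counts in control. Its log2FC was 3.73 (SE 0.55, adjusted p = 0.000284), the highest of the family, and the ratio of the summed counts was 14.2, with an exact 95% interval of counting error from 5.80 to 44.9. Cyp6a2 was the only member near absent from control (3 counts or fewer in each library) and present in Nrf2 overexpression (20 normalized counts or more in each), as were 0.115% of all genes. Cyp6g2, which can confer insecticide resistance when overexpressed, had 137, 170 and 131 normalized counts in Nrf2 overexpression and 20.7, 22.0 and 23.9 in control. The groups were far apart, with a log2FC of 2.72 (SE 0.20, adjusted p = 7.54e-06).

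Among the other Cyp6 genes, Cyp6a20, whose product affects aggression in adult flies, rose 10.1-fold from very few counts (26, 46 and 37 in Nrf2 overexpression, 2, 2 and 6 in control). The ecdysteroid-related gene Cyp6t3 rose 6.39-fold and Cyp6a23 rose 2.30-fold. Smaller rises were those of Cyp6d2 (1.76-fold), Cyp6a14 (1.76-fold), Cyp6a17 (1.68-fold), Cyp6u1 (1.62-fold) and Cyp6d4 (1.44-fold). That of Cyp6d2, a gene tied to resistance to the topoisomerase inhibitor camptothecin, had an adjusted p of 0.00834, or 0.0513 without control replicate 3. Its exons overlap those of nsr on the other strand over 51.0% of their length, and nsr had a log2FC of -0.09 (adjusted p = 0.76). Cyp6v1, with 1562, 1411 and 1460 normalized counts in Nrf2 overexpression and 1456, 1385 and 1509 in control, did not pass the test (log2FC 0.03, SE 0.08). Cyp6g1, known for resistance to DDT, had a log2FC of 0.66 (SE 0.31, adjusted p = 0.0868) and did not pass either.

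Both Cyp9 genes that could be tested rose, against 30.9% of all genes tested. Cyp9c1 had 2922, 2508 and 2063 normalized counts in Nrf2 overexpression and 864, 1128 and 1165 in control, a log2FC of 1.25 (SE 0.15, adjusted p = 7.62e-05). It gained the most counts of any P450 gene, and its lowest Nrf2 overexpression library lay well above its highest control. An annotated antisense RNA covers 98.2% of the exons of Cyp9c1 on the other strand. It was not counted separately, and reads of both cannot be told apart if strand was not used. Cyp9f2 had 407, 396 and 311 normalized counts in Nrf2 overexpression and 99.4, 128 and 105 in control. This is a log2FC of 1.75 (SE 0.15, adjusted p = 1.54e-05), again without overlap. Cyp9b1, Cyp9b2 and Cyp9h1 had at most 5 counts in any library.

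The Cyp4 genes were split, with 5 rising and 2 falling among 8 tested, against 30.9% and 31.6% of all genes tested. Of these, Cyp4e1 and Cyp4ac1 passed the filter only through the Nrf2 overexpression libraries and Cyp4p2 only through the control libraries. Cyp4e2 had 482, 514 and 487 normalized counts in Nrf2 overexpression and 155, 124 and 131 in control, with a log2FC of 1.85 (SE 0.12, adjusted p = 4.57e-06). Its neighbour Cyp4e1 rose by nearly the same fold at a far lower level (log2FC 1.87, SE 0.31, adjusted p = 0.000542). Cyp4ae1 had 126, 159 and 170 normalized counts in Nrf2 overexpression and 71.8, 52.4 and 47.8 in control, a 2.64-fold rise (SE of the log2FC 0.20, adjusted p = 0.000258). Cyp4d14 rose 2.17-fold and Cyp4d2 rose 1.57-fold. Cyp4ac1 had 11, 17 and 13 counts in Nrf2 overexpression and 7, 10 and 2 in control and did not pass the test (adjusted p = 0.1), but did without control replicate 2 (adjusted p = 0.0461). Cyp4g1, the hydrocarbon-forming P450 of oenocytes, and Cyp4d1 had too few counts to be tested, and both had their highest count in control replicate 2 (21 and 26).

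The falls of Cyp4p2 and Cyp4p1 were the largest among the P450 genes that passed the filter. Cyp4p2 had 2, 3 and 0 counts in Nrf2 overexpression and 1594, 1300 and 1494 counts in control. The ratio of the summed counts, control over Nrf2 overexpression, was 917, with an exact 95% interval of counting error from 393 to 2826, and the fitted log2FC was -9.73 (adjusted p = 1.35e-08). As 5 counts carry this ratio, the fit's SE is smaller than its counting error. The interval covers counting error only and leaves out the spread between libraries. Cyp4p2 was the only member near absent from Nrf2 overexpression and present in control by the same limits, as were 0.0645% of all genes. Cyp4p1 had 29.3, 79.0 and 62.7 normalized counts in Nrf2 overexpression and 446, 350 and 445 in control, a log2FC of -2.86 (SE 0.27, adjusted p = 2.44e-05). Cyp4p3, the third gene of the group, had 0 counts in every Nrf2 overexpression library and 7, 4 and 4 in control, at least 5.22-fold lower against a floor of 3 counts over the group. It did not pass the filter, and without the filter its fitted log2FC was -5.38 (adjusted p = 0.00487).

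**Figure D3:**
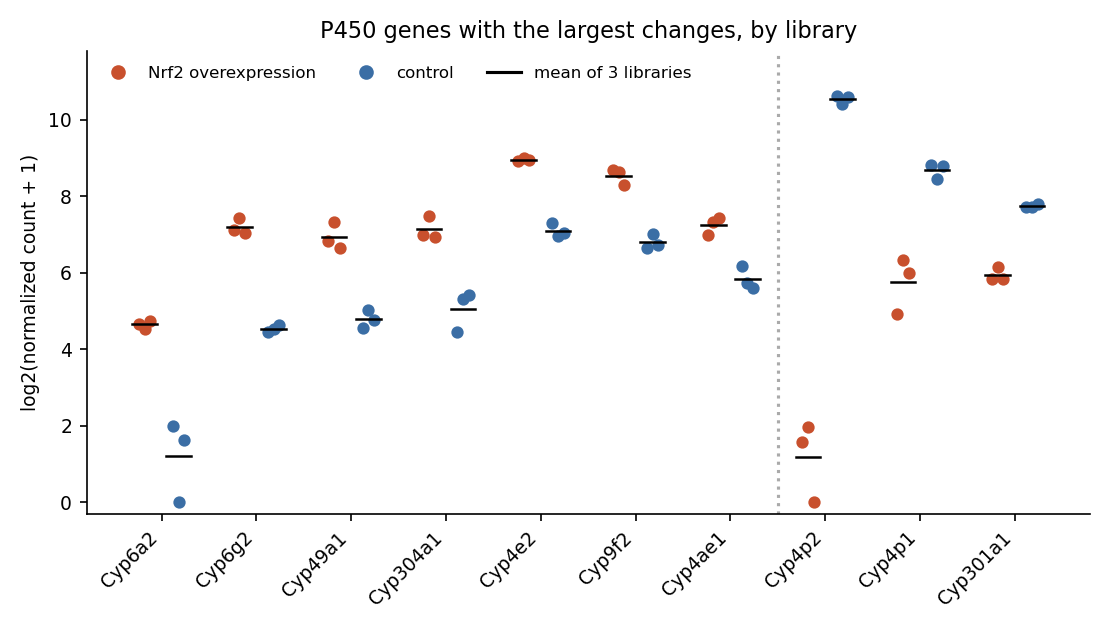
Normalized counts of P450 genes, on a log2 scale after adding 1, for each Nrf2 overexpression and control library, with the mean of the log2 values as a bar. Shown are Cyp6a2 and the called genes with the largest changes among those averaging 50 normalized counts or more. Cyp6a20, Cyp6t3, Cyp28a5 and Cyp12a4, with lower means, are not shown. Left of the dotted line are genes that rose (Cyp6a2 to Cyp4ae1) and right of it genes that fell; Cyp4p2 had at most 3 counts in any Nrf2 overexpression library and 1300 or more in every control.

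The Cyp3xx, Cyp12, Cyp28 and Cyp49 genes moved in both directions. Cyp304a1 had 125, 177 and 121 normalized counts in Nrf2 overexpression and 20.7, 38.7 and 41.5 in control, with a log2FC of 2.07 (SE 0.27, adjusted p = 0.000144). Cyp49a1, of the mitochondrial P450 clan, had 113, 160 and 98.5 normalized counts in Nrf2 overexpression and 22.6, 31.4 and 26.0 in control. The groups did not overlap, and the log2FC was 2.21 (SE 0.25, adjusted p = 5.76e-05). Cyp301a1, a mitochondrial P450 needed to form the adult cuticle, went the other way, with 55.8, 70.3 and 55.7 normalized counts in Nrf2 overexpression and 210, 209 and 222 in control. Its log2FC was -1.82 (SE 0.15, adjusted p = 1.33e-05). Ak6, which overlaps 2.5% of the exons of Cyp301a1 on the other strand, also fell (log2FC -1.16, adjusted p = 5.59e-05).

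Cyp317a1 rose 2.35-fold, but 32.6% of its exons overlap those of Kank on the other strand, which had from 8945 to 12928 counts in Nrf2 overexpression and from 2643 to 3210 in control and rose 3.40-fold. The reads of Cyp317a1 and Kank cannot be told apart there if strand was not used. Cyp28a5 rose 5.64-fold, with 18, 23 and 14 counts in Nrf2 overexpression and 1, 5 and 3 in control. It passed the filter only through the Nrf2 overexpression libraries, where it is high. Cyp310a1 rose 1.21-fold (adjusted p = 0.0301), a small change that depended on the setting. Its adjusted p-value was 0.0540 without Nrf2 overexpression replicate 3, 0.121 without control replicate 1, 0.0856 without control replicate 3, 0.0930 with upper-quartile scaling and 0.0693 with the replicate number as a block. Cyp12a4, known from lufenuron resistance, fell, with 10, 4 and 5 counts in Nrf2 overexpression and 26, 22 and 23 in control (log2FC -1.94, SE 0.39, adjusted p = 0.00173). Cyp12a4 passed the filter only through the control libraries, where it is high, so that the filter itself favours a fall. Its neighbour Cyp12a5 (log2FC -0.68, adjusted p = 0.195), Cyp303a1 (-0.30, adjusted p = 0.114), Cyp28d2 (0.32, adjusted p = 0.223) and Cyp313b1 (0.83, adjusted p = 0.081) did not pass the test. Of the exons of Cyp303a1, 33.0% overlap those of heix on the other strand. Cyp313b1 passed without Nrf2 overexpression replicate 3 (adjusted p = 0.0272).

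Grouped by clan, the deep branches of the P450 tree, the CYP3 clan (Cyp6, Cyp9, Cyp28, Cyp308, Cyp309, Cyp310 and Cyp317) had 18 genes tested, of which 15 rose and 0 fell by edgeR's test, also at an unadjusted p-value under 0.05. Of all genes tested, 30.9% rose and 31.6% fell, and the 15 include Cyp6a2, Cyp6a20 and Cyp28a5, which passed the filter only through the Nrf2 overexpression libraries. Its median log2FC was 1.01. In the CYP4 clan 5 rose and 2 fell among 9 tested. In the mitochondrial clan (Cyp12, Cyp49 and Cyp301), 1 rose and 2 fell among 4 tested. Of the genes that fell in these clans, Cyp4p2 and Cyp12a4 passed the filter only through the control libraries. Cyp4e1, which rose, passed it only through the Nrf2 overexpression libraries. The counts by clan describe few genes each, and the differences between clans were not tested.

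Many P450 genes stand in tandem clusters, taken here as members less than 10 kb apart, and 42 of the 80 lay in 15 such clusters. Coordinates are those of the annotation of BDGP6.54, the build named by the submitters being BDGP6. Members of a cluster share their region and may share reads of similar sequence, so that they are not independent of each other. On chromosome 2R, Cyp6g1 (12185667 to 12188431), Cyp6g2 (12188338 to 12190377) and Cyp6t3 (12190682 to 12192436) lay side by side. Cyp6g2 and Cyp6t3 rose by similar folds (6.57 and 6.39), whereas Cyp6g1 had a fold change of 1.58 and did not pass the test. Cyp6t3 had 57.7, 96.3 and 75.6 normalized counts in Nrf2 overexpression and 18.7, 8.38 and 8.31 in control, a log2FC of 2.68 (SE 0.35, adjusted p = 0.000146). The exons of Cyp6t3 overlap those of CG8858 on the other strand over 3.7% of their length, and CG8858, with far more counts, rose 1.77-fold. The difference between Cyp6g1 and its neighbours was not tested.

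On the X chromosome, the adjoining genes Cyp4d14, Cyp4d2 and Cyp4ae1, between 2173415 and 2180998, all rose, against 30.9% of all genes tested. They rose by 2.17-fold, 1.57-fold and 2.64-fold. Annotated antisense RNAs cover 88.3% or more of the exons of each of them and were not counted separately. Cyp4ad1, Cyp4e2 and Cyp4e1, on chromosome 2R between 8439395 and 8449745, were higher as well, with 7, 8 and 13 counts of Cyp4ad1 in Nrf2 overexpression and 1, 3 and 3 in control. Cyp4ad1 did not pass the filter, and the ratio of its summed counts was 3.83 (exact 95% interval of counting error 1.63 to 10.4). The largest cluster, described here after its values were seen, held 7 Cyp6a genes and Cyp317a1 between 14871366 and 14903095 on chromosome 2R. Its 4 tested genes, Cyp6a17, Cyp6a23, Cyp6a20 and Cyp317a1, all rose, against 30.9% of all genes tested. Of these, Cyp6a20 passed the filter only through the Nrf2 overexpression libraries. The exons of Cyp317a1 overlap those of Kank over 32.6% of their length, and Kank rose 3.40-fold. Between Cyp6a23 and Cyp6a20, Cyp6a9 had 18, 43 and 10 counts in Nrf2 overexpression and 2, 7 and 4 in control, which did not pass the filter. Cyp6a8, Cyp6a19 and Cyp6a22 in the same cluster had at most 3 counts in any library.

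**Figure D4:**
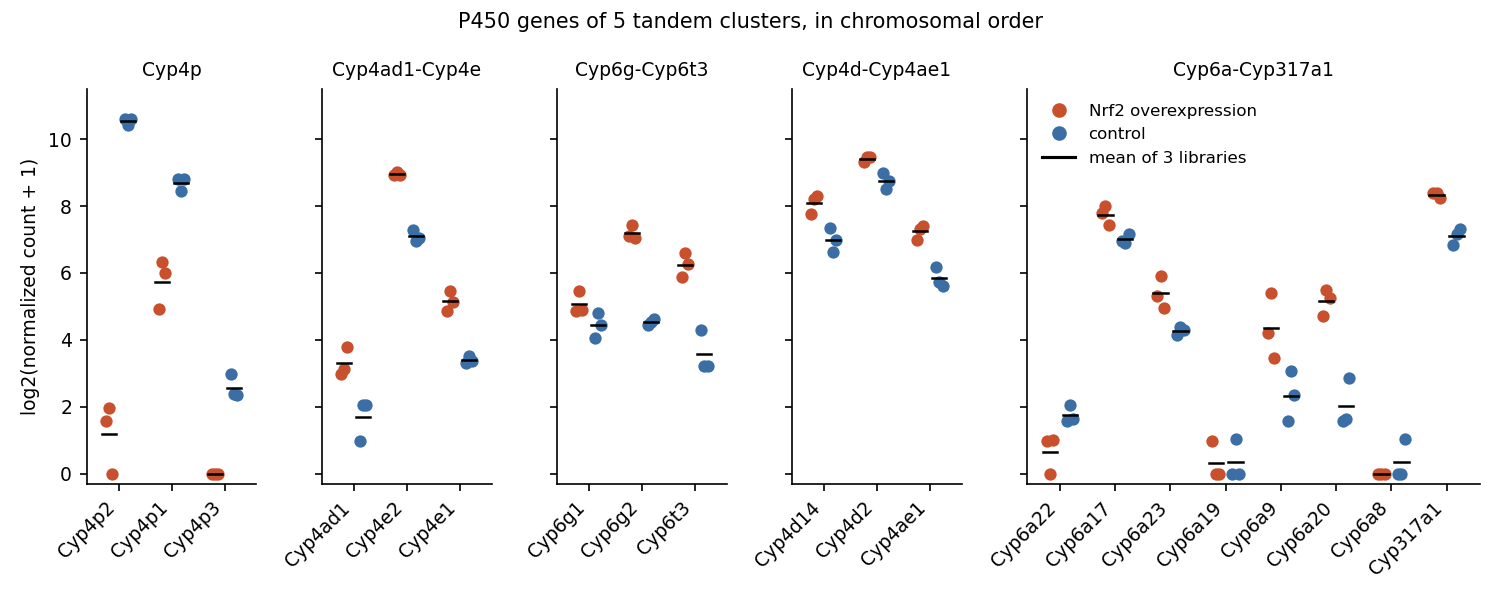
Normalized counts, on a log2 scale after adding 1, of the P450 genes of 5 tandem clusters in chromosomal order, for each Nrf2 overexpression and control library, with the mean of the log2 values as a bar. The Cyp4p genes lie lower in Nrf2 overexpression, while Cyp4e, Cyp6g2, Cyp6t3, Cyp4d and the expressed Cyp6a genes lie higher.

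The 3 Cyp4p genes lay between 9237512 and 9244410 on the plus strand of chromosome 2R, and all were lower in Nrf2 overexpression. They are nested within hig (9227785 to 9247249), a gene of the minus strand with a role in synapses, with which they share no exon. hig had 4, 2 and 2 counts in Nrf2 overexpression and 48, 49 and 37 in control, a log2FC of -4.07 (SE 0.37, adjusted p = 2.23e-05). hig and the genes beyond it were examined after the Cyp4p values were seen. Upstream, VhaAC45, Gnptab and unpg had log2FCs of 0.35, 0.26 and -0.22. Downstream, Tsen15 fell (log2FC -1.20, adjusted p = 0.000345), Pkn, which overlaps Tsen15 on the other strand, had a log2FC of 0.13, and CG34141 had at most 11 counts. The lower values were therefore not shared by all genes around the cluster. Whether the parental chromosomes of both genotypes carried the same Cyp4p alleles was not tested.

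Several P450 genes known to be inducible by xenobiotics in whole flies had almost no counts in these discs in either genotype, and are named here after their values were seen. Cyp6a8 had 0, 0 and 0 counts in Nrf2 overexpression and 0, 0 and 1 in control. Cyp6w1 had 1, 1 and 0 counts in Nrf2 overexpression and 0 in every control. Cyp6d5 had 1, 6 and 0 counts in Nrf2 overexpression and 8, 2 and 2 in control. Cyp12d1-p had 1, 6 and 0 counts in Nrf2 overexpression and 8, 2 and 10 in control, and Cyp12d1-d had at most 2 in either, although reads of these near-identical copies could have been split or lost. None of these genes could be tested, and small changes at such counts are not detectable at this depth. Without the filter on low counts, Cyp6a9, Cyp4ad1 and Cyp305a1 were called higher and Cyp4p3 lower in addition to the 26 genes called with it.

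The P450 genes that rose did not follow the order of cnc among the Nrf2 overexpression libraries. cnc was lowest in replicate 1 and highest in replicate 3. Of the 22 genes that rose, 13 were highest in replicate 2, while 11 were lowest in replicate 3 and 8 in replicate 1. Of all 2585 genes that rose, 50.8% were likewise highest in replicate 2. At the low end, 38.1% of them were lowest in replicate 3 and 53.2% in replicate 1, where cnc was lowest as well. Summed over the 22 genes, normalized counts were 9019, 8920 and 8134 in replicates 1, 2 and 3. With 3 libraries this is a description. Among the 20 genes averaging 50 normalized counts or more, Cyp4p2 left out, the coefficient of variation between replicates had a median of 12.5% in Nrf2 overexpression and 12.8% in control.

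Genes that supply or accompany P450 enzymes did not rise together. Of 8 redox partners, 6 were tested, of which 0 rose and 3 fell by edgeR's test, against 30.9% and 31.6% of all genes tested. None of the 6 was higher at an unadjusted p-value under 0.05 or by DESeq2 or limma-voom. Cpr, the reductase that feeds electrons to P450s of the endoplasmic reticulum, had 2389, 2948 and 2580 counts in Nrf2 overexpression and 2673, 2141 and 2114 in control, and did not pass the test (log2FC 0.13, SE 0.11). The electron carrier Cyt-b5 fell (log2FC -0.42, SE 0.08, adjusted p = 0.00162), and so did the related CG3566 (-0.36, adjusted p = 0.00844) and the mitochondrial ferredoxin gene Fdx2 (-0.56, adjusted p = 0.000992). With the trend of the counts with exon length removed, Cyt-b5 no longer passed (adjusted p = 0.0746), while dare and Fdx1, which pass electrons to mitochondrial P450s, were called higher (log2FCs 0.24 and 0.51, adjusted p = 0.0294 and 0.00183). With total counts only, dare was called higher as well (adjusted p = 0.0442).

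Among 9 genes of haem synthesis and breakdown, 5 rose and 2 fell, against 30.9% and 31.6% of all genes tested. Alas, which catalyses the rate-limiting first step of haem synthesis, rose most, with 2823, 3300 and 2222 counts in Nrf2 overexpression and 993, 930 and 988 in control. Its log2FC was 1.45 (SE 0.12, adjusted p = 1.63e-05). Ppox (0.38), Urod (0.34) and the haem oxygenase gene Ho (0.39) rose by less on the log2 scale. Pbgs, the step after Alas, fell by 0.79 on the log2 scale, and FeCH, which inserts the iron, fell by 0.47. Uros1 and Coprox did not pass the test, although Coprox was called lower with upper-quartile scaling (adjusted p = 0.0352).

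The ecdysteroid P450 genes outside the family as defined here did not share its rise. Of 6 found, 5 were tested, of which 0 rose and 3 fell by edgeR's test, against 30.9% and 31.6% of all genes tested. None of the 5 was higher at an unadjusted p-value under 0.05 or by DESeq2 or limma-voom. Cyp18a1, which inactivates ecdysteroids, had 4, 12 and 3 counts in Nrf2 overexpression and 72, 31 and 32 in control (log2FC -2.86, SE 0.51, adjusted p = 0.000945). sad fell by 0.99 on the log2 scale (adjusted p = 0.00181), and shd by 0.76 (adjusted p = 0.0455), which rose above the threshold, up to 0.155, in each fit without a single library other than Nrf2 overexpression replicate 1. The fall of shd was also not called with DESeq2 (adjusted p = 0.141), total counts only (0.0645), no filter (0.0689) or the replicate block (0.0796). dib and spo did not pass the test (adjusted p = 0.0563 and 0.0752), but dib passed without Nrf2 overexpression replicate 1 (adjusted p = 0.00421) and spo without control replicate 2 (adjusted p = 0.0439).

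Of 9 regulators known to act on P450 genes or on their regulation, 6 rose and 2 fell, against 30.9% and 31.6% of all genes tested. Among these, Hr38 and maf-S lost their calls in other fits. cnc, which is among the 6 that rose, is itself the transgene and is not independent of the design. Keap1, its inhibitor, rose with a log2FC of 1.73 (SE 0.13, adjusted p = 9.7e-06). Hr96, a nuclear receptor of the xenobiotic response, had 563, 637 and 503 counts in Nrf2 overexpression and 364, 307 and 325 in control. This is a log2FC of 0.71 (SE 0.11, adjusted p = 0.000316). The juvenile hormone receptor genes Met (adjusted p = 0.000183) and gce (log2FC 1.78, adjusted p = 0.00795) rose as well. Hr38 rose with an adjusted p of 0.0433, which was above the threshold without either Nrf2 overexpression replicate 1 or 2 or without control replicate 1 or 3, at up to 0.15. The call was also lost with DESeq2 (0.0519), limma-voom (0.0541), upper-quartile scaling (0.0614) and the exon-length trend removed (0.241), all as adjusted p. maf-S, the partner of CncC on DNA, fell by 0.41 on the log2 scale (adjusted p = 0.0105, or 0.0519 without Nrf2 overexpression replicate 2). With the exon-length trend removed it no longer fell (log2FC 0.0072, adjusted p = 0.925). tgo, the partner of bHLH-PAS factors, fell by 0.40 on the log2 scale (adjusted p = 0.00219).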

How the data were processed

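The authors deposited, for each of the 6 libraries, raw counts of reads per gene for 13955 genes, without normalization. Libraries were made from 500 ng of total RNA. The submitters' processing notes name FastQC 0.11.5, Bowtie and BDGP6, while the counting tool, annotation release and use of strand are not given in the sources used here. A table of the whole series repeating these counts was not used. Symbols came from the reference gene table (13660 identifiers), and coordinates and exon lengths from Ensembl's annotation of BDGP6.54 by identifier.

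Counts were filtered with filterByExpr, scaled by TMM and tested with the quasi-likelihood test of edgeR 4.0.16 (limma 3.58.1, DESeq2 1.42.0 and R 4.3.3 for alternatives), with Benjamini-Hochberg adjustment over 8361 genes and a threshold of 0.05. Standard errors came from the fold change and its F statistic. Normalized counts are counts divided by TMM-scaled totals, times their mean. Procedures were tested on simulated counts. Intervals and floors cover counting error only.

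Members and lists were chosen with earlier results of these data known. Genes named are the 6 with the largest changes in each direction (adjusted p under 0.05, mean of at least 50 normalized counts), the 8 highest levels, genes near absent from a genotype, clusters holding any of these largest changes, all other called members, and called genes of the 4 associated lists, of which 1 is counted but not reported here by name. Only 3 fell with such a mean. Alternatives were other scalings, tests, filters and thresholds, a replicate block, removal of a loess trend with exon length (span 0.5) and leaving out each library. Markers not found were not analysed here.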

Additional observations from a re-analysis of the deposited data

How the results depend on the processing

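The 22 P450 genes that rose and the 4 that fell stayed within 1.5 times these counts under each of the 18 alternatives. The number that rose lay between 15 (fold limits of 2 and 0.5, or genes averaging 50 normalized counts or more) and 25 (no filter), and the number that fell between 3 and 5. Leaving out each library in turn gave 21 to 24 genes that rose, 4 that fell, a median log2 fold change of 0.78 to 1.12 (highest without control replicate 2 and, at 1.05, without Nrf2 overexpression replicate 3), 18 to 21 called genes of the associated lists and a log2 fold change of cnc of 5.89 to 6.36. Of the 21 called genes of the associated lists, 12 were called with fold limits of 1.4 and 0.6 and 5 with limits of 2 and 0.5, as fewer genes pass such limits. With the exon-length trend removed, the log2 fold change of maf-S was 0.0072 (adjusted p = 0.925), against -0.41, and Cyp303a1 passed the test (-0.36, adjusted p = 0.0482); the cause was not tested. The slope of the log2 fold change on log2 exon length was 0.206 over 8159 genes. Same-numbered libraries did not deviate together, the correlations of their deviations over genes being -0.168, 0.087 and 0.129, and genes are no independent replicates. With the replicate block, 21 P450 genes rose and 4 fell, the median was 0.82, 20 genes of the associated lists were called, shd lost its call (adjusted p = 0.0796), and the cnc log2 fold change was 6.04. Members with few counts are limited by depth, and a count of 0 does not show that a gene was silent.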
